A study of Mus musculus with 9 samples.

Results

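The mitochondrial genome is a small circular chromosome that encodes 2 rRNAs, 22 tRNAs and 13 proteins of the respiratory chain, and Argonaute (AGO) is the protein that carries microRNAs to the RNAs they pair with. The regions described here are all AGO-bound regions of mouse liver that lie on that chromosome, 45 of the 92645 regions in the series, chosen by chromosome alone. Both strands of the circle are transcribed as long precursors that are cut apart at the tRNAs between the genes. The reference plus strand carries the sense sequence of both rRNAs and of nearly all mRNAs, and only mt-Nd6 among the mRNAs and a minority of the tRNAs lie on the minus strand. MicroRNAs are best known for acting on cytosolic mRNAs, and miR-122 is the most abundant microRNA of hepatocytes.

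AGO was crosslinked to RNA by ultraviolet light and recovered with a pan-AGO antibody (CLIP-seq) from livers of 9 mice aged 6 weeks. The 5 controls were floxed littermates labelled WT, 3 females and 2 males. The 4 miR-122 knockout (KO) mice, labelled KO, were 1 female and 3 males. Which Cre line deleted the floxed gene is not stated in the labels. Each mouse gave a single library. The libraries held 445912 to 1170130 counts, of which 13308 to 42072 lay in mitochondrial regions. Over the deleted microRNA gene the controls had 270 to 447 counts and the KO libraries 3 to 52. The 10 hepatocyte markers were all detected in every group, at a summed 26123 to 33769 CPM (counts per 1000000 counts of the library) in the controls and 16211 to 22789 CPM in the KO livers. Markers of neurons, 15 genes, summed to 41.6 to 56.4 CPM in the controls and 1862 to 7638 CPM in the KO livers, where KO replicate 4 held 3.63 times the mean of KO replicates 1 to 3. Syn1, Rbfox1, Gap43, Stmn2 and Nefm were at 0 in all controls. All 11 neuron markers that could be tested were higher in KO, against 21.2% of all tested genes. A low-count filter kept a gene with enough reads in either group alone, so this count is a description. Among tested hepatocyte markers 6 of 10 were lower, against 23.7% of all tested genes, and 1 was higher. Also higher were 3 of 4 astrocyte and oligodendrocyte markers and 2 of 6 stellate and endothelial markers. No Kupffer cell or red cell marker passed. KO replicate 4 stood apart, and values without it are given beside many, but not all, of the rises.

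The regions were not spread evenly over the genome. The plus strand held 30 regions with 257074 counts, all in sense to an annotated gene, and the minus strand 15 regions with 1921 counts, of which 5 were in sense to mt-Nd6 or a tRNA and 10 were antisense to an mRNA. By RNA class, 8 regions lay in the rRNAs mt-Rnr1 and mt-Rnr2, 21 in mRNAs, 6 in tRNAs and 10 opposite a gene. With each region counted for the gene of its longest same-strand overlap, 15 of the 37 mitochondrial genes had a sense region: both rRNAs, 7 of 13 mRNAs and 6 of 22 tRNAs. The region of mt-Tl1 also reaches 58 bases into mt-Nd1, which has no other. Most regions, 42 of 45, were 70 bases wide, the median width of the whole series. They were deeply covered, with a median of 736 counts over the 9 libraries against 25 for all regions.

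The deposited table lists seed matches of 31 microRNA families. A seed match pairs with the microRNA's seed, bases 2 to 8, fully or in part: an 8mer is the longest kind listed, a 6mer the shortest, and 7mer-m8 and 7mer-A1 lie between. At least 1 match was listed in 34 of the 45 regions (75.6%), against 83.0% of all regions, and a 7mer or 8mer in 23 (51.1%), against 60.0%. The mature microRNAs below are among those whose matches lie in the most-covered mitochondrial regions and in the region of mt-Nd4l, with the seed, bases 2 to 8, in capitals. They are RefSeq sequences from the GRCm38.p6 table, 1 member for each family.
mmu-let-7c-5p: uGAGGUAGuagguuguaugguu
mmu-miR-192-5p: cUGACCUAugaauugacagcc
mmu-miR-21a-5p: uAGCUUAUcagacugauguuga
mmu-miR-27a-3p: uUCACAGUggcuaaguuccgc
mmu-miR-30a-5p: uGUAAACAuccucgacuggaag

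No pair among these shares a seed. The let-7 seed has an 8mer match in the strongest rRNA region, and the miR-192-5p seed has 8mers in the next rRNA region and in mt-Co1. The miR-21a-5p seed has a 7mer-A1 in the tRNA-Met region and a 7mer-m8 in mt-Nd4l, the miR-27 seed an 8mer in the tRNA-His region, and the miR-30 seed an 8mer in mt-Nd5 and a 7mer-m8 in mt-Rnr2. A match is a description of the letters in a region, not of a microRNA bound there. A phyloP score is positive where bases change more slowly between species than by chance. Its median was -0.86 over the 47 mitochondrial matches and 0.82 over the 127805 matches of the series, nearly all of them nuclear. Bases outside the matches were not scored here. The difference therefore cannot be told apart from one between the chromosomes as a whole. Placed by the gene at the match itself, the 7 matches inside tRNAs had a median of 1.86 and the 10 in rRNAs -0.31. The 18 in mRNAs had -1.18 and the 11 opposite a gene -2.22. The score belongs to a position and not to a strand, so the last value also describes the mRNA on the other strand.

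A single region over mt-Tm, the only tRNA-Met gene of the mitochondrion, held 132336 counts, 51.1% of all mitochondrial counts. It lies on the plus strand at chrM:3831-3900 (mm10), with its first bases opposite the minus-strand gene mt-Tq and the rest inside the tRNA. It was the most-covered of the 92645 regions, by mean CPM, in the controls and in the KO livers alike. Its level was 12974, 16768, 9389, 10880 and 22778 CPM in the controls and 17593, 22002, 20157 and 21906 CPM in the KO livers, a mean of 14558 ± 5367 (SD, n = 5) and 20414 ± 2064 (SD, n = 4). Control 5 was the highest of all libraries and the groups overlapped. The fitted log2 fold change, KO over control, was 0.32 with an SE of 0.32 (edgeR quasi-likelihood test, adjusted p = 0.451), so no difference passed the test. The region holds a miR-192-5p 6mer and the miR-21a-5p 7mer-A1, both inside the tRNA and with phyloP scores of 2.24 and 2.22.

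The region at chrM:615-684 in mt-Rnr1, the small-subunit rRNA, ranked 4th of all regions over the 9 libraries and held 17.5% of the mitochondrial counts. It was at 7043, 5315, 4476, 4547 and 6388 CPM in the controls and 3655, 6643, 6185 and 9403 CPM in the KO livers. The groups overlapped, and the log2 fold change was 0.03 with an SE of 0.37 (edgeR, adjusted p = 0.952). The let-7 8mer of this region had a phyloP score of 0.25, while the miR-192-5p 8mer of the region at chrM:720-789 scored 2.47. That second region was at 1722 ± 296 CPM in the controls (SD, n = 5) and 1711 ± 412 CPM in the KO livers (SD, n = 4). The region over mt-Th, the tRNA-His gene, at chrM:11537-11606, followed in rank 64, with 638 to 1038 CPM in the controls and 943 to 1334 CPM in the KO livers (log2 fold change 0.42, edgeR adjusted p = 0.193). It carries the deposited name mt-Nd4 and is the only 1 of 35 named regions whose longest same-strand overlap is another gene. None of these 4 regions changed past the test, but mt-Th did with scaling by library total (log2 fold change 0.63, edgeR adjusted p = 0.0369) or upper quartile (0.64, edgeR adjusted p = 0.0421).

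Mitochondrial regions together took a larger share of the counts in the KO livers, close to the threshold. In the controls the share was 2.87, 2.98, 2.15, 2.24 and 3.84%, against 3.18, 4.10, 3.71 and 5.27% in the KO livers, a mean of 2.82 ± 0.682% (SD, n = 5) and 4.06 ± 0.890% (SD, n = 4). Control 5 lay above 2 of the KO libraries, so the groups overlapped. The difference was 1.25 percentage points (two-sided exact permutation test over 126 splits, p = 0.0476, smallest possible 0.00794). Within sex the same difference gave p = 0.05 over 40 arrangements (exact, smallest possible 0.025), which is not under the threshold. It also lost the threshold without any 1 library other than control 5: without KO replicate 4 it was 0.845 percentage points (exact permutation p = 0.107). A share depends on its denominator, and over counts in regions without a miR-122-5p match the difference was 0.506 percentage points (exact permutation p = 0.421).

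**Figure D1:**
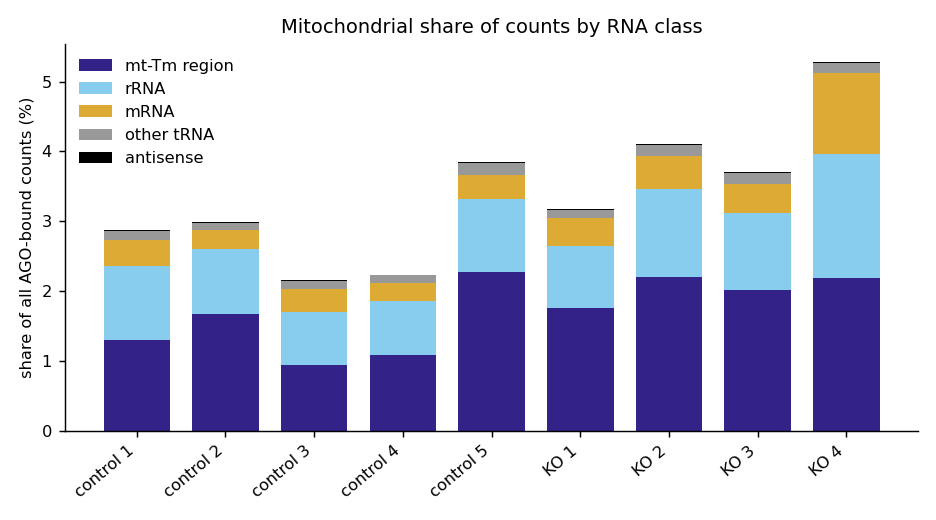
Stacked bars give each library's mitochondrial counts as a percent of all its counts, split by RNA class. The mt-Tm region is the largest block in all 9 libraries, and the mRNA block is tallest in KO replicate 4.

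The make-up of the mitochondrial counts did not differ past the test in any of 3 composition shares. The rRNA share was 32.9 ± 3.96% in the controls (SD, n = 5) and 30.5 ± 2.48% in the KO livers (SD, n = 4; exact permutation p = 0.325, adjusted p = 0.397). The minus-strand share was 0.827 ± 0.286% and 0.646 ± 0.165% (n = 5 and 4, exact permutation p = 0.317, adjusted p = 0.397). In the controls the mRNA share was 12.9, 9.13, 15.2, 12.1 and 9.09%, against 12.8, 11.6, 11.1 and 21.9% in the KO livers (exact permutation p = 0.397, adjusted p = 0.397). KO replicate 4 was the high library, and the difference of 2.66 percentage points was 0.154 without it. The regions with a miR-122-5p match went from 10.3 ± 2.41% of the mitochondrial counts in the controls to 1.18 ± 0.322% in the KO livers.

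Of the 45 regions, 37 had enough reads to be tested, and the 8 others, all on the minus strand, held 18 to 67 counts each. The filter keeps a region with enough reads in either group alone, so counts among the tested regions are a description. In the fit over all 17182 tested regions of the series, 24 of the 37 passed the test, against 45.1% of all tested regions: 4 fell, against 27.6%, and 20 rose, against 17.5%. The median log2 fold change of the 37 was 0.83, and that of all tested regions 0.03. The groups did not overlap in CPM in 25 of the 37, against 38.4% of all tested regions. On the plus strand 19 of 30 rose and 3 fell, and of the 7 tested on the minus strand 1 rose and 1 fell.

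**Figure D2:**
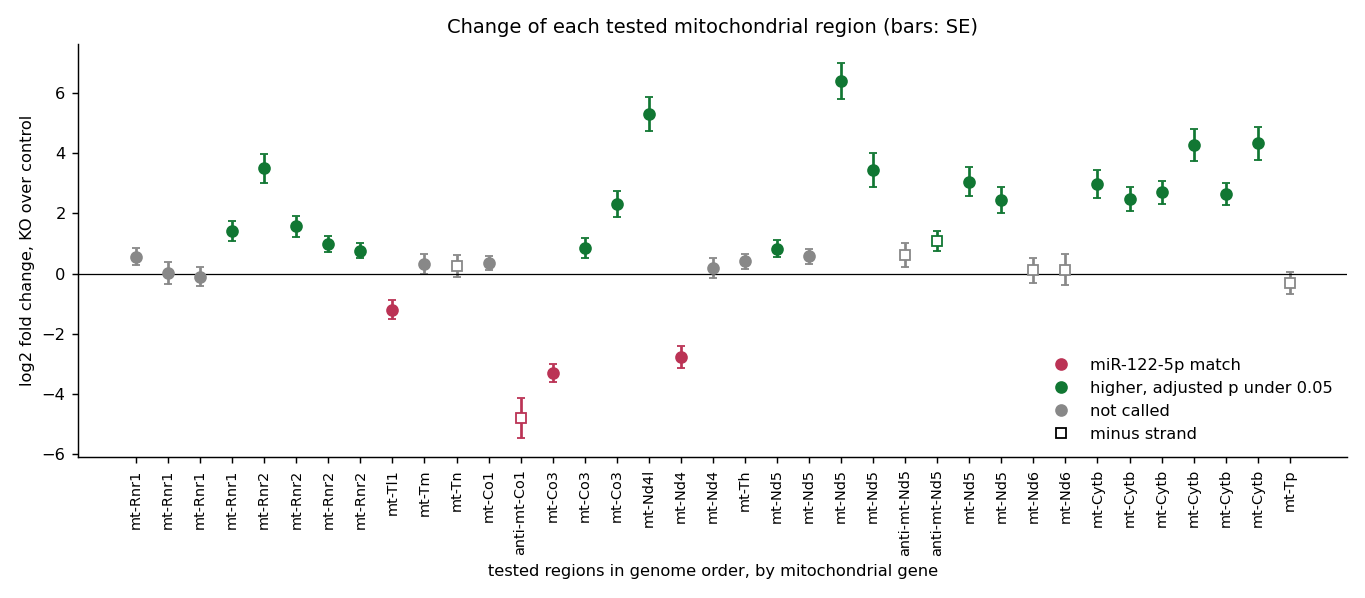
Each point is the log2 fold change, KO over control, of 1 of the 37 tested regions in genome order, with its SE, and open squares mark the minus strand. The 4 regions with a miR-122-5p match lie below 0, and 20 regions without 1 lie above 0 past the test.

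The 4 regions that fell were the 4 with a miR-122-5p match. In the series as a whole, 89.8% of tested regions with such a match fell and 1.29% rose, and 16.3% of those without fell. The median of the 4 was -3.04, and that of all 2637 tested regions with a match -3.74. They lie inside mt-Co3, inside mt-Nd4, across the junction of mt-Tl1 and mt-Nd1, and antisense to mt-Co1. The phyloP scores of their miR-122-5p matches ran from -3.03 to -1.47.

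The region at chrM:8784-8853 in mt-Co3, which encodes a core subunit of cytochrome c oxidase, holds a 7mer-m8. It was at 1197, 1029, 1015, 902 and 1122 CPM in the controls and 172, 63.3, 81.3 and 96.3 CPM in the KO livers. Every control lay far above every KO library. The log2 fold change was -3.30 with an SE of 0.30 (edgeR adjusted p = 2.2e-07), the lowest adjusted p of all members, and the call held under every alternative run.

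The region at chrM:11102-11171 in mt-Nd4, a subunit of complex I, holds a 6mer for miR-122-5p and a 7mer-m8 for miR-126a-5p. Its level was 1710, 967, 1485, 1125 and 1463 CPM in the controls and 194, 159, 136 and 302 CPM in the KO livers. The groups did not overlap, with KO replicate 4 the highest of its group. The log2 fold change was -2.77 with an SE of 0.37 (edgeR adjusted p = 1.05e-05). The control mean of 1350 CPM made it the 46th of all regions in the controls, and the KO mean of 198 CPM the 394th in the KO livers.

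The region at chrM:2683-2808 crosses the junction between mt-Tl1, a tRNA-Leu gene, and mt-Nd1, another complex I subunit, where the precursor is cut. Its miR-122-5p 7mer-m8, at positions 2773 to 2778, lies on the mt-Nd1 side. It was at 426, 253, 322, 329 and 471 CPM in the controls and 145, 129, 169 and 243 CPM in the KO livers. The lowest control, 253, was only just above the highest KO library, 243, and the fall was the smallest of the 4 (log2 fold change -1.20, SE 0.31, edgeR adjusted p = 0.00457).

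The fourth lies on the minus strand, antisense to mt-Co1, at chrM:5760-5829, and holds a miR-122-5p 8mer. It had few reads: the controls held 14, 13, 40, 32 and 16 counts, and the KO livers 1, 0, 0 and 2. With counts pooled over each group and scaled by library totals, the controls held 33.9 times the KO level (95% counting interval 11.3 to 167). The ratio of mean CPM was 25.0. Without KO replicate 4, where 1 count remained, the pooled ratio was 84.8 (14.9 to 3379). Here and elsewhere such intervals cover counting error only.

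The 20 regions that rose lay in both rRNAs, in mt-Co3, mt-Nd4l, mt-Nd5 and mt-Cytb, and antisense to mt-Nd5. None holds a miR-122-5p match, and 15 of the 20 passed under all 18 alternatives. Of the 33 tested regions without such a match 20 rose and 0 fell by edgeR, against 20.4% and 16.3% of all tested regions without 1, and 0 fell at an unadjusted p under 0.05 or by DESeq2. Without the low-count filter all 45 regions were tested and 5 were lower. The fifth, antisense to mt-Nd1 and without a miR-122-5p match, held 16 counts over the controls and 2 over the KO livers. Its log2 fold change was -2.87 (edgeR adjusted p = 0.0403). Pooled over each group and scaled by library totals, the ratio was 7.06, with a 95% counting interval of 1.66 to 63.3. A region antisense to mt-Atp6 held 20 and 3 counts, a ratio of 5.89 with an interval of 1.75 to 30.9, and did not pass (log2 fold change -2.45, edgeR adjusted p = 0.0635). It holds a 6mer for miR-122-3p, the other strand of the deleted hairpin. Such a 6mer also lies in the antisense mt-Nd5 region at chrM:12930-12999, which did not fall (log2 fold change 0.63 with the filter, edgeR adjusted p = 0.214). A log2 rise of at least 2 was seen in 13 of the 37, against 6.4% of all tested regions. Regions with no match of any of the 31 families, which the deposited table marks as orphans, numbered 11. Of these 9 were tested and 7 rose, against 20.4% of all tested regions without a miR-122-5p match. The share among all orphans of the series was not computed. Of the mitochondrial regions with a match of another family only, 24 were tested and 13 rose, against the same 20.4%. The share among all such regions of the series was not computed either.

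The largest rise was at chrM:12814-12883 in mt-Nd5, a large complex I subunit, where no family has a match. It held 21.1, 40.4, 12.3, 8.55 and 24.2 CPM in the controls and 1114, 1177, 1054 and 3535 CPM in the KO livers. The lowest KO library was far above the highest control, and KO replicate 4 held 3.17 times the mean of KO replicates 1 to 3. The ratio of means was 80.7 and the log2 fold change 6.40 with an SE of 0.60 (edgeR adjusted p = 3.16e-07). Without KO replicate 4 it was 5.76 and without KO replicate 1 it was 7.08, both past the test. From rank 7090 in the controls it came to rank 33 of all regions in the KO livers.

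The second was the only region of mt-Nd4l, a small complex I subunit, at chrM:10002-10071, which holds the miR-21a-5p 7mer-m8 with a phyloP score of -2.41. Its level was 46.5, 20.2, 24.6, 21.4 and 37.6 CPM in the controls and 818, 989, 526 and 2802 CPM in the KO livers. Again the groups were far apart and KO replicate 4 was highest, at 3.60 times the mean of KO replicates 1 to 3. The ratio of means was 42.7 and the log2 fold change 5.30 with an SE of 0.57 (edgeR adjusted p = 1.33e-06), and 4.57 without KO replicate 4.

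In mt-Nd5 the rise differed along the gene. The first of its 6 sense regions rose by a log2 fold change of 0.83 (edgeR adjusted p = 0.026), with overlapping groups, and did not pass without controls 1, 4 or 5 (adjusted p of 0.061 to 0.228); the second was at 60.2 ± 4.32 CPM in the controls (SD, n = 5) and 97.7 ± 13.3 CPM in the KO livers (SD, n = 4), log2 fold change 0.58 (edgeR adjusted p = 0.0736). The other 4, toward the 3′ end, rose by log2 fold changes of 2.46 to 6.40, and by 1.95 to 5.76 without KO replicate 4. The next after the largest, at chrM:12913-12982, was at 3.44. It was 4.24 without KO replicate 1 and 2.93 without KO replicate 4. The region with the largest rise took 6.02 to 26.9% of the sense mt-Nd5 counts in the controls and 64.4 to 76.6% in the KO livers.

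Every 1 of the 6 regions of mt-Cytb, the cytochrome b subunit of complex III, rose, by log2 fold changes of 2.47 to 4.33. The region with the largest of these, at chrM:15162-15287, was at 11.3, 13.5, 11.4, 8.55 and 25.5 CPM in the controls and 167, 245, 216 and 761 CPM in the KO livers (edgeR adjusted p = 5.44e-06). The region at chrM:14767-14836, again with no match of any family, was nearly even among the controls, 8.05 to 9.87 CPM, and reached 108 to 456 CPM in the KO livers (log2 fold change 4.27, edgeR adjusted p = 4.82e-06). The groups did not overlap in any of the 6. Without KO replicate 4 all 6 still passed, with log2 fold changes of 2.09 to 3.67, and the region at chrM:14767-14836 was at 3.64, against 4.93 without KO replicate 1.

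All 4 regions of mt-Rnr2, the large-subunit rRNA, rose, while 1 of the 4 in mt-Rnr1 did. The strongest, at chrM:1647-1716 and without a match of any family, was at 29.6, 60.6, 34.3, 57.3 and 79.2 CPM in the controls and 396, 481, 386 and 1572 CPM in the KO livers, a log2 fold change of 3.50 with an SE of 0.48 (edgeR adjusted p = 1.64e-05), and 2.80 without KO replicate 4. The other 3 regions of mt-Rnr2 had log2 fold changes of 0.77 to 1.57, and in none did the groups overlap. The smallest of these, at chrM:2394-2463, did not pass without controls 1, 3 or 4 or KO replicate 1 (edgeR adjusted p up to 0.217), with TMM scaling from regions without a miR-122 match (0.64, edgeR adjusted p = 0.0528) or without the low-count filter (0.66, edgeR adjusted p = 0.0659), and the region at chrM:1930-1999 not without KO replicate 1 (edgeR adjusted p = 0.0829). In mt-Rnr1 the last region, at chrM:865-997, rose from 228 ± 25.7 CPM (SD, n = 5) to 654 ± 276 CPM (SD, n = 4). Its log2 fold change was 1.41 (edgeR adjusted p = 0.00238), and 1.00 without KO replicate 4. The 3 others had log2 fold changes of -0.10 to 0.57 and did not pass the test. The highest of these values was that of the first region, at chrM:259-328, which was at 645 ± 182 CPM in the controls (SD, n = 5) and 920 ± 139 CPM in the KO livers (SD, n = 4; edgeR adjusted p = 0.118) and passed by library total, by upper quartile and without control 2 (0.71 to 0.78).

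**Figure D3:**
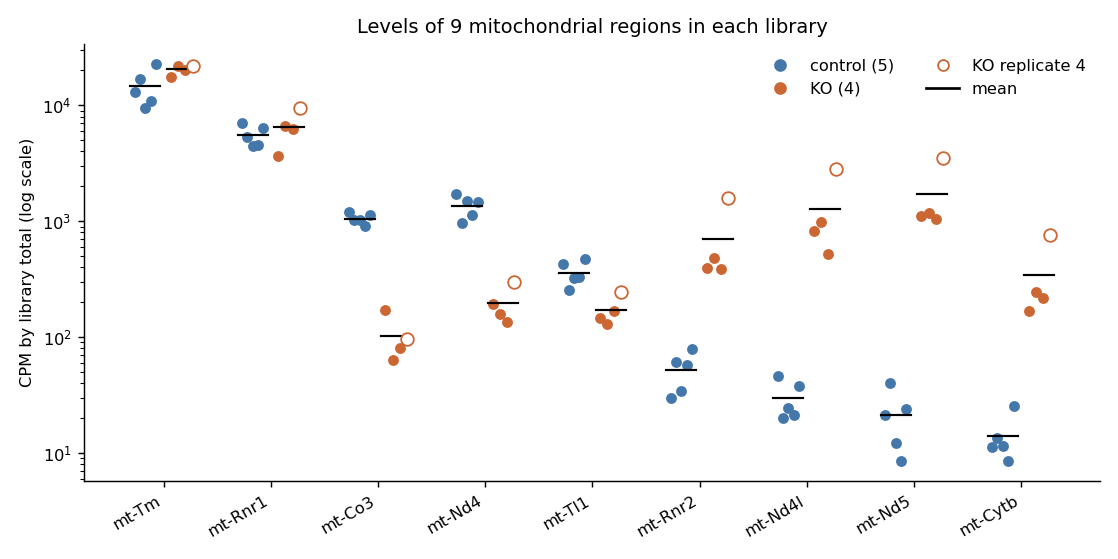
CPM by library (log scale) of 9 regions, 1 each of the genes named on the axis; blue points are the 5 controls, orange points the 4 KO libraries, open circles KO replicate 4 and bars the means. The mt-Tm and mt-Rnr1 groups overlap, the mt-Co3, mt-Nd4 and mt-Tl1 regions are lower in every KO library, and the 4 regions on the right are higher in every KO library.

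KO replicate 4, which had the most neuron marker counts, was the highest library in 16 of the 20 regions that rose. Over the 13 regions that rose by a log2 fold change of at least 2, the ratio of KO replicate 4 to the mean of the other KO libraries was 2.05 to 3.73, with a median of 2.81, and over the 13 regions that did not pass the test a median of 1.10. The neuron marker ratio was 3.63, that of astrocyte and oligodendrocyte markers 2.65 and that of hepatocyte markers 0.781. The astrocyte and oligodendrocyte markers, 5 of 6 found, summed to 271 to 466 CPM in the controls and 700 to 1971 CPM in the KO livers, with Gfap and Mbp at 0 in all controls. Muscle markers, 4 of 6 found, summed to 0.879 to 79.2 CPM in the controls and 0.975 to 36.8 CPM in the KO livers. Kupffer cell markers, 5 of 6 found, ran from 184 to 256 and from 163 to 292 CPM, red cell markers, 5 of 6, from 8480 to 12291 and from 11818 to 18977 CPM, and stellate and endothelial markers, all 6, from 672 to 908 and from 867 to 1727 CPM. The part of these cell types in the rises was not tested. The marker values are AGO-bound counts of bulk liver, not RNA levels. In them fewer cells of a type, less RNA per cell and less AGO bound per RNA cannot be told apart. Without KO replicate 4 the fit called 23 regions, 19 higher and 4 lower, of the 37.

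Neighbouring regions of a gene moved in opposite directions in mt-Co3 and diverged in mt-Nd4. In mt-Co3 the region with the miR-122-5p match fell, while the next 2 downstream rose. The nearer rose by a log2 fold change of 0.85 (edgeR adjusted p = 0.0431). The farther rose by 2.32 (edgeR adjusted p = 0.000285), and by 1.83 without KO replicate 4. The nearer rise did not pass in DESeq2 (adjusted p = 0.061) or without controls 1, 3 or 4 or KO replicates 1 or 4, with log2 fold changes of 0.50 to 1.05. The region with the match took 90.9 to 94.5% of the mt-Co3 counts in the controls and 21.7 to 49.3% in the KO livers, with no overlap. In mt-Nd4 the second region, at chrM:11440-11509, had a log2 fold change of 0.20 (edgeR adjusted p = 0.657), and the region with the match took 86.9 to 93.1% of the counts in the controls and 49.0 to 67.2% in the KO livers. These shares do not depend on the scaling of libraries.

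**Figure D4:**
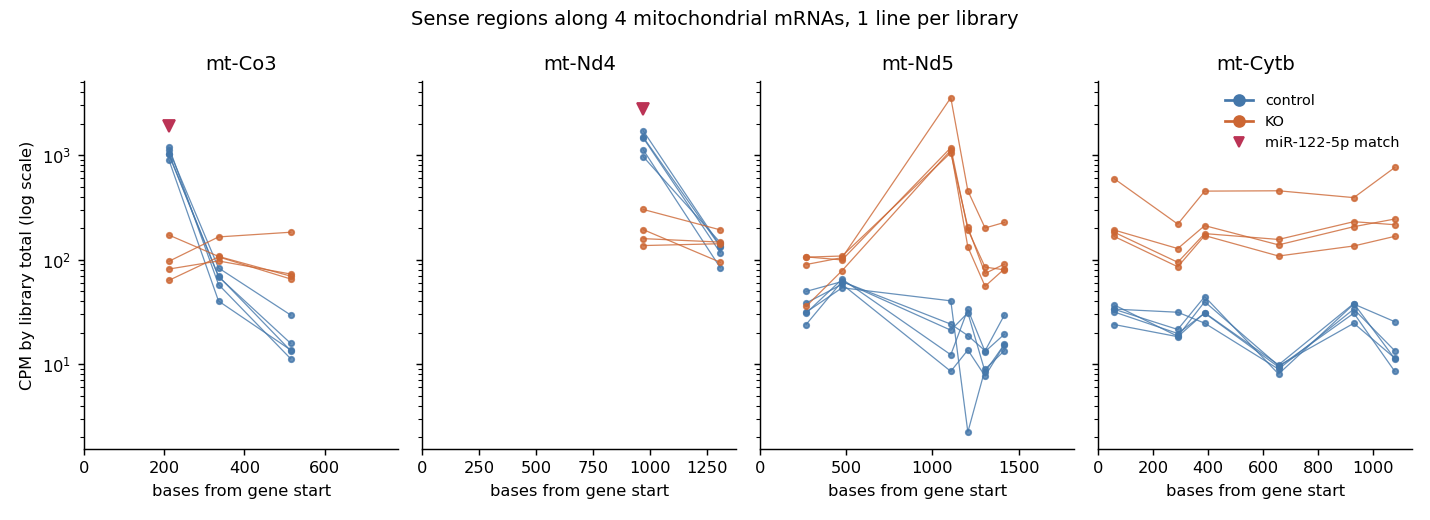
CPM (log scale) of the sense regions against the distance of their centre from the start of 4 mitochondrial mRNAs, with 1 line per library; triangles mark regions with a miR-122-5p match. Controls are higher at the marked regions of mt-Co3 and mt-Nd4, and KO libraries are higher at the later regions of mt-Nd5 and all along mt-Cytb.

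Summed by gene and tested among 8860 genes, 7 of the 14 sense genes passed the test, 4 higher and 3 lower, against 21.2% and 23.7% of all genes. The higher were mt-Nd4l with a log2 fold change of 5.23, mt-Nd5 with 3.63, mt-Cytb with 3.10 and mt-Rnr2 with 1.36. Without KO replicate 4 mt-Nd5 was at 3.08, mt-Cytb at 2.55 and mt-Rnr2 at 1.06, all still past the test. The lower were mt-Nd4 with -2.21, mt-Co3 with -1.87 and mt-Tl1 with -1.27. The others, mt-Rnr1, mt-Tm, mt-Tn, mt-Co1, mt-Th, mt-Nd6 and mt-Tp, had log2 fold changes of -0.36 to 0.36 and did not pass. Per 100 covered bases, the controls held 1052 CPM over mt-Nd4, 540 over mt-Co3, 299 over mt-Co1 and 30.3 to 42.9 over mt-Cytb, mt-Nd5 and mt-Nd4l, and the KO livers 244, 152, 434 and 309 to 1834 CPM in the same order. Of these mRNAs mt-Nd4 was the highest in the controls and mt-Nd4l in the KO livers.

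The minus strand had little coverage. The sense regions of mt-Nd6, a complex I subunit, were at 22.6 ± 7.91 CPM together in the controls (SD, n = 5) and 24.0 ± 12.9 CPM in the KO livers (SD, n = 4), and those of mt-Tn and mt-Tp, the tRNA-Asn and tRNA-Pro genes, did not pass the test either. The mt-Ts1 region, over a tRNA-Ser gene, was not tested. Opposite mt-Nd5, 4 antisense regions summed to 39.6 ± 11.1 CPM in the controls (SD, n = 5) and 73.5 ± 14.7 CPM in the KO livers (SD, n = 4), a log2 fold change of 0.76 (edgeR adjusted p = 0.0235) that did not pass without controls 3 or 4 or KO replicate 1, with the TMM scaling from rows without a miR-122 match (0.40, edgeR adjusted p = 0.205) or with the replicate block (0.91, edgeR adjusted p = 0.0753). Of these, the region at chrM:13007-13076 rose by a log2 fold change of 1.08 (edgeR adjusted p = 0.0159), but not without control 4 (edgeR adjusted p = 0.114). KO replicate 4, the highest KO library over sense mt-Nd5, was not the highest here: it held 27.8 CPM and the other KO libraries 28.3 to 39.2 CPM.

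Counts of several mitochondrial regions recur in a nuclear copy. RefSeq lists 2 pseudogenes on chromosome 1, Gm10222 and Gm10925, which have the lengths of mt-Nd4l and mt-Atp6, 297 and 681 bases, and lie in the opposite orientation. Around them the series has 15 regions with 12749 counts, and 7 of these cover the positions that mirror all 7 mitochondrial regions of that stretch. The counts were nearly equal: the mt-Nd4l region summed to 123 counts over the controls and 4117 over the KO livers, and its mirror at chr1:24612500-24612569 to 162 and 4122. The mt-Co3 region with the miR-122-5p match held 4354 and 384 counts, and its mirror at chr1:24613726-24613795 held 4243 and 371, a log2 fold change of -3.30 (edgeR adjusted p = 2.1e-07). How reads that fit both places were assigned is not stated in the labels or headers, so the origin of the mt-Nd4l and mt-Co3 counts in one or the other copy cannot be told apart.

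**Figure D5:**
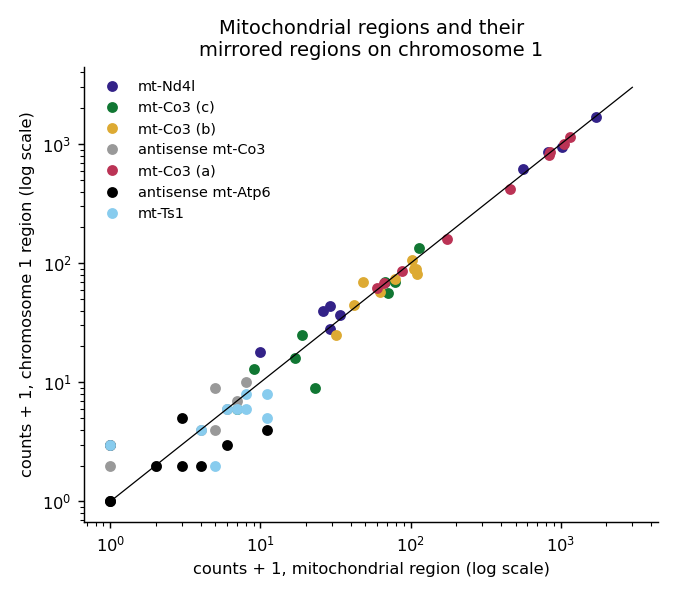
Counts plus 1 in each of the 9 libraries of 7 mitochondrial regions (horizontal, log scale) and of their mirrored regions on chromosome 1 (vertical, log scale); a, b and c are the mt-Co3 regions from 5′ to 3′ and the line marks equal counts. The points of mt-Nd4l and mt-Co3 lie along the line in controls and KO libraries.

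Of the 15 regions, 9 were tested. Of these 7 rose, against 17.5% of all tested regions, 1 fell, against 27.6%, and 1 did not pass the test. The filter keeps a region with enough reads in either group alone, so these counts are a description. Those that rose include 5 with no counterpart among the mitochondrial regions, at positions that mirror mt-Co2 (2 regions), mt-Atp6 and mt-Co3 (2 regions). The region mirroring mt-Atp6, at chr1:24614437-24614506, had the largest of these rises, from 137 to 1013 counts (log2 fold change 3.10, edgeR adjusted p = 2.1e-05). The genes mt-Co2 and mt-Atp6 have no sense region on the mitochondrial chromosome. The regions of mt-Rnr2, mt-Nd4, mt-Nd5 and mt-Cytb lie outside the mirrored stretch. Mirrored regions were looked for only around these pseudogenes on chromosome 1, and copies elsewhere in the nuclear genome were not searched for by sequence.

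The nuclear genes that maintain, transcribe, process and translate mitochondrial RNA moved mostly downward. Of 77 listed genes 60 had regions and 39 were tested: 21 fell, against 23.7% of all genes, 1 rose, against 21.2%, and 17 did not pass, with a median log2 fold change of -0.78 against 0.05 over all genes. Among the 20 with a miR-122-5p match in a region 15 fell and 0 rose, against 37.8% and 13% of all tested genes with such a match, and among the 19 without 6 fell and 1 rose, against 11.3% and 28.5%. The 5 falls with the smallest p were Oxa1l, the inner-membrane insertase, with a log2 fold change of -2.24, Lactb2, a mitochondrial RNase, with -1.74, Trnt1, the CCA-adding enzyme of tRNAs, with -1.52, Peo1, the helicase Twinkle, with -2.07, and Taco1, a translational activator of mt-Co1, with -2.23; all 5 have a miR-122-5p match (edgeR adjusted p of 7.7e-06 to 0.00033). Rexo2, an exonuclease of short RNAs, went from 11.5 ± 3.78 CPM (SD, n = 5) to 22.0 ± 6.64 CPM (SD, n = 4), a log2 fold change of 1.06 (edgeR adjusted p = 0.0344). Its groups overlapped, and it did not pass without any of controls 1, 3, 4 and 5 and KO replicates 1 and 2 (edgeR adjusted p of 0.0519 to 0.102).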

How the data were processed

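The deposited matrix gives raw read counts per region and mouse, per the file headers, over 92645 regions. Per the submitters' processing notes Bowtie2 and mm10 were used; the peak caller and the treatment of duplicates and multiply mapped reads are not stated in labels or headers. The deposited conservation score averages phyloP over a match's 6 bases, and the authors' deposited log2 value, control over KO, had the opposite sign of the fit, as its direction implies, in 33 of the 37 tested regions. Start positions proved to count from 0 (152 of 152 matches checked against RefSeq promoter bases) and are given from 1.

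Regions were assigned to the gene with the longest same-strand overlap in the RefSeq GRCm38.p6 table, with strand from the standard gene order. Counts of all regions, and sums per gene, went into edgeR 4.0.16 under R 4.3.3 (filterByExpr, TMM, glmQLFTest, genotype and sex as terms), with Benjamini-Hochberg adjustment over all rows at 0.05. The SE was derived from the test statistic. DESeq2 1.42.0 was an alternative. Shares were compared by two-sided exact permutation, adjusted over the 3 composition shares. The scripts were tested on simulated counts. Of tested regions with a planted log2 fold change of 2 or -2, 94% and 51.5% were called, and with 1 or -1, 8% and 0%. For gene sums these were 92%, 87.8%, 42% and 23.4%. Of rows without a planted change 0% of regions and 0.1% of genes were called. A small change that did not pass is therefore not shown to be absent.

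A floor of 3 counts is 2.56 to 6.73 CPM in a library; the libraries were amplified, so intervals cover counting error only. Chi-square per degree of freedom between replicates was 2.67 to 10.6, so the libraries of a group differed by more than counting error. Same-numbered libraries did not deviate together (correlations of -0.091 to 0.007). With so few libraries, and with sexes that differ within some numbers, this cannot decide whether the replicate numbers pair the mice. A fit with the replicate number as a block was run as an alternative. Named are the 10 regions with the highest mean level, up to 5 called regions in each direction by p, every mitochondrial gene and up to 5 nuclear genes in each direction. The regions, gene lists and tests were chosen with earlier results of these data known.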

Additional observations from a re-analysis of the deposited data

Results flagged for a closer look

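In 21 of the 100 groups examined, 1 library lay apart from the others of its group by Dixon's criterion; chance alone gives about 1 in 20. KO replicate 4 was the high library in 15 of the 21. Its mRNA share of mitochondrial counts was 21.9%, against 11.1 to 12.8% in the other KO libraries.

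The regions with KO replicate 4 high were those of mt-Rnr1 at chrM:865-997 with 1068 CPM, mt-Rnr2 at chrM:1647-1716 with 1572 CPM and at chrM:1817-1886 with 1166 CPM, and mt-Co3 at chrM:8908-8977 with 165 CPM and at chrM:9088-9157 with 183 CPM. In mt-Nd5 they were the region at chrM:12814-12883 with 3535 CPM and that at chrM:13125-13194 with 227 CPM. In mt-Cytb the levels in KO replicate 4 were 596 CPM at chrM:14168-14237, 452 CPM at chrM:14498-14567, 456 CPM at chrM:14767-14836 and 761 CPM at chrM:15162-15287. Summed by gene, it held 495 CPM over mt-Nd4, 4612 CPM over mt-Nd5 and 2875 CPM over mt-Cytb. The mt-Nd4 sum was 278 to 306 CPM in the other KO libraries, although mt-Nd4 fell in KO. The same library had the highest neuron marker sum, as given above, and the part of that in these values was not tested.

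KO replicate 3 was apart in the antisense mt-Nd5 region at chrM:13007-13076, with 39.2 CPM. Among the controls, control 5 was high in mt-Rnr2 at chrM:1817-1886 with 267 CPM, in mt-Co3 at chrM:9088-9157 with 29.5 CPM, in mt-Th with 1038 CPM and in mt-Cytb at chrM:15162-15287 with 25.5 CPM. Control 2 was high in mt-Cytb at chrM:14400-14469 with 31.4 CPM. An interaction term of genotype and sex was fitted for 54 results. It could not decide whether the genotype effect differed between the sexes, because the KO group held 1 female.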

How the results depend on the processing

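Under the 18 alternatives the 4 falls and 20 rises kept their direction; 15 rises and 3 falls also passed the test in each. The replicate block changed the mt-Tl1 call (log2 fold change -0.90, adjusted p = 0.137) and that of mt-Nd5 at chrM:11974-12043 (1.05, adjusted p = 0.106). It gave 22 regions, 7 genes and 14 nuclear genes of mitochondrial expression; for the mitochondrial share it gave 1.50 percentage points (4 pairs, exact p = 0.125, the smallest possible). The best-correlated control of a KO library was never its own number. The mitochondrial share was also short of the threshold within sex (1.25 percentage points), without miR-122-matched regions in its denominator (0.506) and without any 1 library (0.845 to 1.54) other than control 5 (1.50, exact p = 0.0286). The nuclear genes called higher were 0 with TMM from regions without a miR-122 match, without sex or with the block, 2 without the low-count filter and 0 to 1 without 1 library.

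Scaling by library total or upper quartile moved the median log2 fold change of all regions by 0.21 and 0.23, and TMM from regions without a miR-122 match by -0.12, and the members called were 27, 28 and 21. Small changes that were not called turned sign. For mt-Rnr1 at chrM:615-684 the value was -0.094 with TMM from regions without a miR-122 match, -0.093 without the filter and -0.33 to 0.50 without 1 library. For mt-Rnr1 at chrM:720-789 it was 0.077 by library total, 0.10 by upper quartile, 0.013 without sex, 0.022 with the block and -0.38 to 0.26 without 1 library. For mt-Nd6 at chrM:13582-13651 it was -0.018, -0.052 and -0.34 with that TMM, without sex and with the block, and -0.21 to 0.35 without 1 library. Without 1 library it was -0.14 to 0.64 for mt-Tn, -0.19 to 0.72 for mt-Nd4 at chrM:11440-11509 and -0.039 to 0.30 for mt-Nd6 at chrM:13913-13982. The mt-Tp value was 0.20 with the block. Summed, mt-Rnr1 was -0.29 with that TMM and -0.21 to 0.44 without 1 library, and mt-Nd6 -0.32, -0.023 and -0.072 with that TMM, without sex and with the block, and -0.33 to 0.48 without 1 library. The cause was not tested. Sums with or without the mt-Tm region and the copy on chromosome 1 were chosen after seeing the data and gave 0.662 and 1.35 percentage points for the mitochondrial share. The low-count filter left out 8 regions with 18 to 67 counts; without it 5 regions were lower and 16 higher. Called regions also lost the test for mt-Co3 at chrM:8908-8977 (0.73, adjusted p = 0.0897; 0.83 and 0.0548 with a mean of at least 10 counts) and mt-Nd5 at chrM:11974-12043 (0.71, adjusted p = 0.057) with that TMM, and without the filter those 2 (adjusted p of 0.0766 and 0.132) and antisense mt-Nd5 at chrM:13007-13076 (0.97, adjusted p = 0.0732). Regions not called passed by upper quartile for mt-Co1 at chrM:5425-5494 (0.59) and, with library total, upper quartile, sex left out or KO replicates 1 or 2 left out, for mt-Nd5 at chrM:12183-12252 (0.68 to 0.82), and without control 5 for antisense mt-Nd5 at chrM:12930-12999 (1.13).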
